A study of Mus musculus with 6 samples.

Results

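The genes described here are 42 genes for enzymes of purine and pyrimidine nucleotide metabolism in mouse macrophages, out of 55487 genes in the count table. They were chosen by symbol from knowledge of the pathway, and all 42 were found in the table through their Ensembl identifiers in GENCODE M21. The cells were RAW264.7, a mouse macrophage-like line transformed by Abelson leukaemia virus that can form osteoclasts. The treatment given for each of the 6 samples is RANKL/M-CSF, a pair of cytokines under which macrophages turn into osteoclasts. The 3 control samples have the genotype wt, although the design text calls their cell line untreated. The other 3, titled SMART-Cas9, have the genotype RhoA knockout, RhoA being a GTPase that acts on actin and cell shape. The study's stated interest was the part that loss of RhoA in macrophages plays in bone destruction in rheumatoid arthritis. No group received Cas9 without the targeting of RhoA, so the 2 cannot be told apart, and whether the edited cells were a clone or a pool is not given in the sources used here. Separate cultures are not stated for the replicates, so the p-values speak only of the spread among these libraries, and that spread may be technical.

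Cells obtain nucleotides by building them anew on the sugar phosphate PRPP or by salvaging bases and nucleosides. New purine synthesis runs through a chain of enzymes to IMP, from which AMP and GMP branch off, and new pyrimidine synthesis runs to UMP. Ribonucleotide reductase then turns ribonucleotides into the deoxynucleotides of DNA, and phosphorylases, deaminases and phosphohydrolases take nucleosides and nucleotides apart. Dividing cells draw on new synthesis, while macrophages are known for SAMHD1, which keeps their deoxynucleotide pool low.

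Library totals ran from 60198645 to 81830819 counts. The most abundant gene, Spp1, held 32.8 to 33.9% of the counts of a control library and 9.44 to 10.8% of a knockout library. The 10 most abundant genes of a library held 62.0 to 63.2% and 44.1 to 47.8%. Rhoa, the targeted gene, did not fall in the knockout group. Its counts were 1655, 1510 and 1440 in the controls and 2805, 2670 and 2395 in the others, a log2 fold change of 0.41 ± 0.12 (SE, adjusted p = 0.0136). That call was lost without control replicate 1 (adjusted p = 0.0645) or knockout replicate 1 (adjusted p = 0.0741). An edit need not lower a transcript, so the level cannot settle the label, and "knockout" below stands for the library labelled RhoA knockout. All 10 macrophage-defining genes looked at held counts. They summed to 18210 to 20065 CPM (counts scaled to TMM-adjusted library size) per control library and 81116 to 113723 CPM per knockout library. Of the 9 tested, 3 were higher and 5 lower, so the rise of the sum does not stand for the list as a whole. The 10 osteoclast-defining genes summed to 24.3 to 27.7 CPM per control library and 27.3 to 27.5 CPM per knockout library, with 2 higher, 3 lower, and Calcr and Oscar at 0 everywhere. The part of either list in the results below was not tested. Lists for T cells, B cells, fibroblasts, epithelium, endothelium and erythroid cells summed to at most 3.31 CPM in a library, with Cd3e, Cd79a, Col1a1, Krt5, Cdh5 and Hbb-bs among the defining genes at 0. Control replicate 3 and knockout replicate 3 stood apart from the other libraries of their groups, since chi-square over its degrees of freedom was 80.8 or more in each comparison with them, and 20.7 and 26.3 between replicates 1 and 2. Without both, 20 members were higher and 5 lower.

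Genes of new synthesis and of deoxynucleotide formation were mostly higher in the knockout libraries, and 4 of the 7 genes of breakdown were lower, or 2 of 5 without Upp1 and Cda, which passed the filter on low counts only through the controls. Of the 42 members, 22 were higher, 6 lower and 14 not called at an adjusted p of 0.05. Among all 12930 genes tested, 21.0% were higher and 22.3% lower, 43.2% in all. With library totals in place of TMM scaling, 59.8% of all calls were higher, against 48.5% with it, the median of all genes moved from -0.03 to 0.15, and 23 members were higher and 4 lower. With TMM scaling but without the 10 genes most abundant over all libraries, 22 members were higher and 6 lower. The median log2 fold change of the members was 0.40, or 0.63 with library totals. A change of 2-fold or more was called in 13 members upward and 4 downward, where 11.2% and 14.7% of all genes were called at that size. In 22 members every knockout library lay above every control library and in 7 below, against 27.5% and 28.3% of all genes tested, or 55.8% in either direction. All 42 members passed the filter, but those 2 had to differ to do so. Without them, 22 of 40 were higher and 4 lower, and at 2-fold or more 13 were higher and 2 lower. Every knockout library then lay above every control library in 22 members and below in 5. In bulk samples, fewer cells expressing a gene and less RNA of it per cell cannot be told apart.

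**Figure D1:**
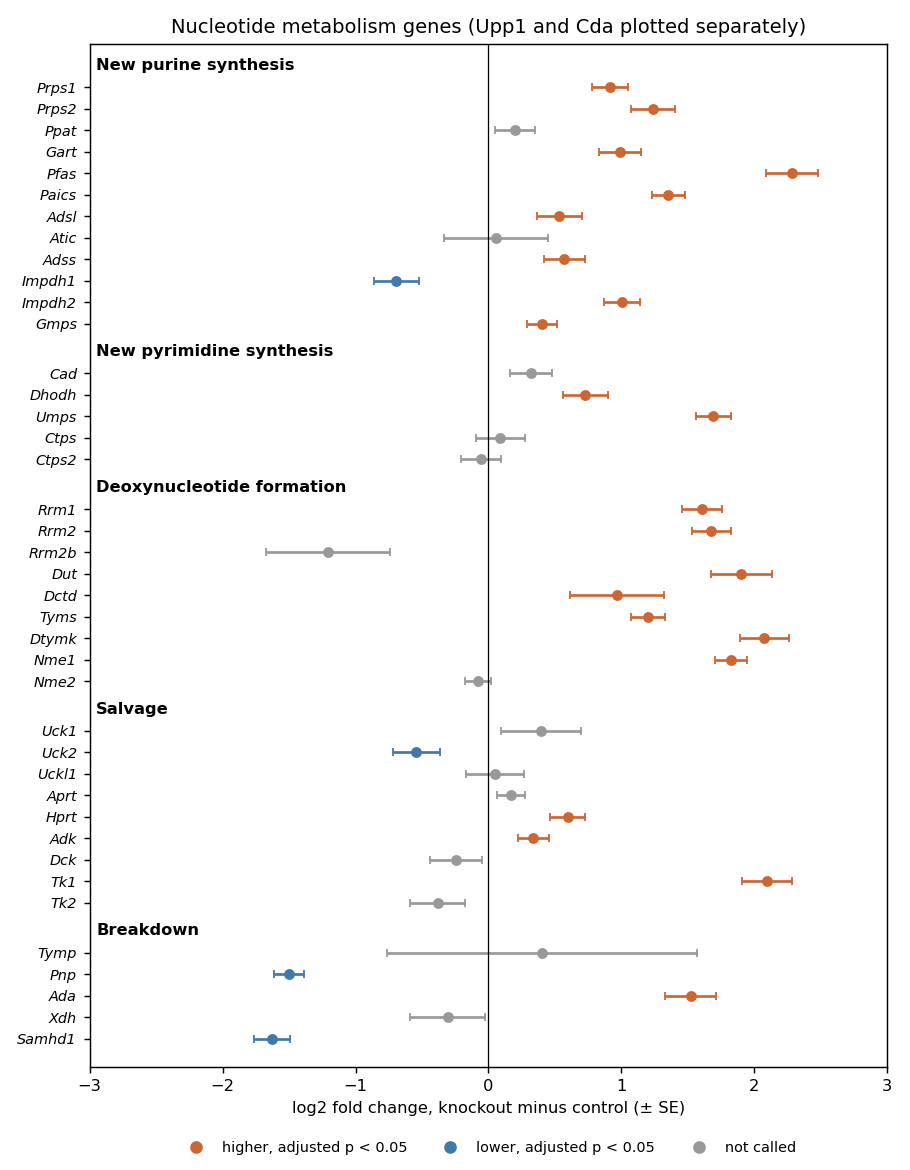
Log2 fold change (knockout minus control, x axis, ± SE) of 40 nucleotide metabolism genes, in 5 groups by role, with colours for the call at an adjusted p of 0.05. Most genes of new synthesis and deoxynucleotide formation lie to the right of 0, Pnp and Samhd1 at -1.50 and -1.63 to the left, and Ada, at 1.52, is the breakdown gene called higher.

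Of the 12 genes of new purine synthesis, 9 were higher, 1 lower and 2 not called, with a median log2 fold change of 0.74. Their summed level rose from 210.5 ± 23.9 to 384.0 ± 1.01 CPM (SD, n = 3 each), of which Prps1 made up the greatest share. Prps1, a synthetase that makes PRPP, was the highest of them per kilobase of exon, at 35.7 and 67.2 CPM per kb. It stood at 79.2, 76.0 and 58.2 CPM in the controls and 123.8, 128.8 and 149.4 CPM in the knockout libraries, with no overlap (log2 fold change 0.91 ± 0.13, adjusted p = 0.000154). Prps2, its isozyme, rose too, from 5.31, 5.84 and 4.43 to 11.7, 12.05 and 12.99 CPM (1.24 ± 0.17, adjusted p = 8.07e-05).

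The steps after PRPP did not change evenly. Ppat, the amidotransferase that commits PRPP to purines and is the main point of feedback control, was not called, at 10.5 ± 1.42 and 12.1 ± 0.764 CPM (SD, n = 3 each; log2 fold change 0.20 ± 0.15, adjusted p = 0.327). Pfas, the next amidotransferase along the chain, showed the highest log2 fold change of all 42 members. Its libraries held 3.11, 3.93 and 3.67 CPM in the controls and 21.9, 15.7 and 14.3 CPM in the knockout (2.28 ± 0.20, adjusted p = 2.31e-06), so every knockout library exceeded the highest control several-fold. Gart, which carries 3 activities of the chain in 1 protein, had a log2 fold change of 0.99 ± 0.16. Part of its exons is shared with the antisense gene Gm15964, which held up to 11.6% of its count, so Gart is uncertain. Paics, which carries the carboxylase and the following ligase, rose from 25.1, 18.98 and 20.8 to 56.6, 55.5 and 53.7 CPM (1.35 ± 0.12, adjusted p = 3.89e-06). Adsl, which acts both in the chain and on the way to AMP, was at 0.53 ± 0.17, with control replicate 1 inside the range of the knockout libraries. Atic, which closes the ring to IMP, was the lowest per kilobase, at 0.243 and 0.254 CPM per kb, and was not called (0.06 ± 0.39).

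Ppat and Paics lie head to head on chromosome 5 (GRCm38, 76913249 to 76951578 on the minus strand and 76951307 to 76967509 on the plus strand). Their first exons overlap by 272 bp, reads from that stretch cannot be assigned without strand, and both genes are uncertain for that reason. Paics rose and Ppat was not called, although the overlap makes up 8.67% of the exon length of Paics and 6.15% of that of Ppat.

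At the branch from IMP, the isozymes of IMP dehydrogenase, the rate-limiting step to GMP, moved in opposite directions. Impdh2 stood at 26.6, 19.6 and 19.99 CPM in the controls and rose to 47.9, 40.9 and 44.0 CPM (1.00 ± 0.14, adjusted p = 0.0001005). Its value is uncertain because the processed pseudogene Impdh2-ps, at 99.7% identity, held 32.2 to 46.6% of its count, and rose alongside it (0.92). Impdh1 fell from 8.45 ± 0.693 to 5.22 ± 0.346 CPM (-0.69 ± 0.17, adjusted p = 0.00565, but 0.0749 with library totals alone). Gmps, the GMP synthetase, and Adss, which starts the branch to AMP, rose by 0.40 ± 0.11 and 0.57 ± 0.16. The calls of these smaller rises were sensitive to single libraries, while the log2 fold change stayed at 0.34 to 0.46 for Gmps, 0.39 to 0.67 for Adss and 0.41 to 0.73 for Adsl when any 1 was left out. Gmps lost its call without knockout replicate 1 or 2 (adjusted p = 0.0623 and 0.0594) and Adss without knockout replicate 2 (0.0778). Adsl lost it without control replicate 2 or 3 or knockout replicate 1 or 2 (0.105, 0.0729, 0.0666 and 0.121).

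**Figure D2:**
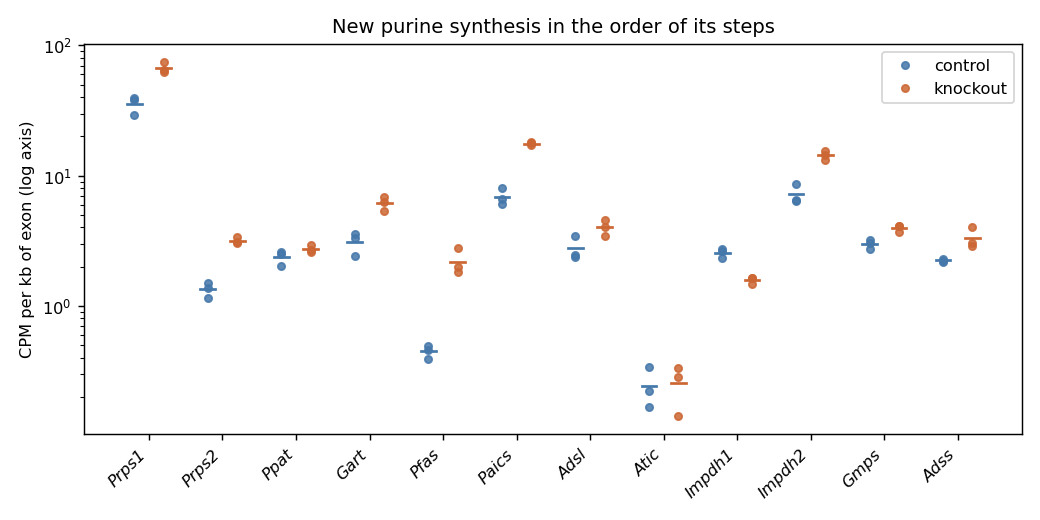
TMM-scaled CPM per kb of exon (log axis) of the 12 genes of new purine synthesis in the order of their steps, with a point for each of the 3 control and 3 knockout libraries and a bar for the group mean. Prps1 stands highest in both groups, Pfas moves from 0.450 to 2.18 CPM per kb, and the points of Ppat and Atic overlap between the groups.

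Of the 5 genes of new pyrimidine synthesis, 2 were higher and 3 not called, with a median of 0.32. Umps, the bifunctional enzyme that completes UMP, rose from 15.8, 14.9 and 11.9 CPM to 42.1, 48.0 and 47.6 CPM (1.69 ± 0.13, adjusted p = 1.32e-06). Dhodh, the mitochondrial dehydrogenase before it and the target of leflunomide, a drug given in rheumatoid arthritis, rose by 0.73 ± 0.17 (adjusted p = 0.00405). Cad, the trifunctional enzyme that starts the route, was at 9.60 ± 1.62 and 11.99 ± 0.778 CPM (SD, n = 3 each) and was not called (0.32 ± 0.16, adjusted p = 0.132). It was called without control replicate 1 (0.47, adjusted p = 0.049) and with a correction for gene length (0.70, adjusted p = 0.0036). The CTP synthetases Ctps and Ctps2 were at 0.09 ± 0.18 and -0.05 ± 0.15, with overlapping libraries, and the sign of each depended on the setting.

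Of the 9 genes of deoxynucleotide formation, 7 were higher, 0 lower and 2 not called with edgeR, with a median of 1.61. DESeq2 called 0 lower as well. Of the 2 not called, edgeR put 1, Rrm2b, below 0.05 before adjustment. Rrm1 and Rrm2 encode the large and the S-phase small subunit of ribonucleotide reductase. Rrm1 rose from 20.2, 20.2 and 14.2 to 60.1, 56.7 and 49.3 CPM (1.61 ± 0.15, adjusted p = 4.69e-06). Rrm2 rose from 38.3, 42.1 and 27.9 to 119.6, 110.8 and 116.3 CPM (1.68 ± 0.14, adjusted p = 2.28e-06). In both genes control replicate 3 was the lowest library and the groups lay far apart.

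The enzymes that make dTMP and dTTP rose with them. Dut, the dUTPase that provides dUMP, went from 5.53, 4.77 and 2.66 to 16.4, 15.5 and 16.7 CPM (1.90 ± 0.23, adjusted p = 3.66e-05). Tyms, the thymidylate synthase, went from 34.3, 36.4 and 26.8 to 71.9, 72.2 and 80.3 CPM (1.20 ± 0.13, adjusted p = 1.26e-05). Tyms counts as uncertain because a stretch of about 355 bp matches other transcripts. Besides Map3k2 and Wdr59 these include Reep3, which held the most, 432 to 937 counts, and it was lower in the knockout libraries (-0.85). Dtymk, the thymidylate kinase, went from 6.13, 8.17 and 4.65 to 28.2, 24.9 and 26.8 CPM (2.08 ± 0.19, adjusted p = 3.34e-06). Dctd, the dCMP deaminase, was called only narrowly, at 0.97 ± 0.35 (adjusted p = 0.0455). Without control replicate 2 or 3 or knockout replicate 1, 2 or 3 its adjusted p was 0.0874, 0.0515, 0.0568, 0.148 and 0.101, and its log2 fold change was 0.61 without control replicate 3, in which it held 101 counts. Nme1, a nucleoside diphosphate kinase, rose from 133.7, 133.6 and 135.0 to 424.9, 454.8 and 543.5 CPM (1.82 ± 0.12, adjusted p = 3.14e-07). Per kilobase it reached 142.0 ± 18.5 CPM in the knockout libraries (SD, n = 3), which does not differ from Aprt, a salvage gene at 137.8 ± 10.1, beyond their spread.

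Rrm2b, the p53-inducible small subunit used outside S phase, held 115, 104 and 80 counts in the controls and 55, 90 and 24 in the knockout libraries. Its libraries did not overlap on the CPM scale, but at -1.21 ± 0.47 it missed the threshold (adjusted p = 0.0551), and it passed without knockout replicate 2 (-1.66, adjusted p = 0.0288), with a replicate block (0.0422), with counts divided by 4 (0.0335) and under a stricter low-count filter (0.0370). The antisense gene Gm49085 shares part of its exons and held 22 counts in knockout replicate 3, or 91.7% of the count of Rrm2b there. Rrm2b is uncertain for that reason.

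Of the 9 salvage genes, 3 were higher, 1 lower and 5 not called, with a median of 0.17. Tk1, the cytosolic thymidine kinase of S phase, rose from 28.1, 26.6 and 15.5 to 99.5, 99.8 and 101.2 CPM (2.10 ± 0.19, adjusted p = 4.58e-06), and every knockout library lay far above every control. Aprt, the adenine phosphoribosyltransferase, was the most abundant salvage gene per kilobase, at 122.2 and 137.8 CPM per kb. Its libraries held 196.5, 187.0 and 208.7 CPM in the controls and 217.1, 209.7 and 240.8 CPM in the knockout. It was not called (0.17 ± 0.10, adjusted p = 0.211), passed with library totals alone (0.34, adjusted p = 0.0088) and turned to -0.19 with the length correction. Hprt, which salvages hypoxanthine and guanine, rose by 0.60 ± 0.13 (adjusted p = 0.00305), but by 0.25 with the length correction (adjusted p = 0.191).

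The other kinases of nucleoside salvage showed smaller differences. Adk, the adenosine kinase, was at 0.34 ± 0.12 (adjusted p = 0.0369), and without control replicate 1, 2 or 3 or knockout replicate 1, 2 or 3 its adjusted p lay between 0.0551 and 0.123. Uck2, the more active of the uridine-cytidine kinases, fell by 0.54 ± 0.17 on the log2 scale (adjusted p = 0.0243). The call was lost without control replicate 1 (0.119), knockout replicate 1 (0.0755) or knockout replicate 3 (0.0671), with library totals alone (0.195) and with the length correction (0.0997). Uck1, uncertain because its pseudogene Gm4482 held 11.0 to 33.8% of its count, and Uckl1 were at 0.39 ± 0.30 and 0.05 ± 0.22. Dck, the deoxycytidine kinase, was at -0.24 ± 0.20 and the mitochondrial Tk2 at -0.38 ± 0.20, and neither was called.

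Among the 7 breakdown genes there were 4 lower, 1 higher and 2 uncalled, and in sum they held 132.9 ± 6.82 CPM in the controls and 49.7 ± 3.16 CPM in the knockout libraries (SD, n = 3 each). Their median log2 fold change was -1.50, or -0.31 over the 5 left without Upp1 and Cda, of which 2 were lower, 1 higher and 2 not called. Upp1 (chromosome 11, GRCm38 9118103 to 9136170, plus strand, Ensembl ENSMUSG00000020407.13) encodes the uridine phosphorylase that splits uridine into uracil and ribose phosphate. The gene held 1539, 1424 and 2227 counts in the controls and 0, 18 and 0 counts in the knockout libraries. In summed counts over summed scaled totals, the control level was 367 times the knockout level, with a 95% counting interval of 232 to 619. All 18 counts lay in knockout replicate 2, so without that library the group held none. The control level was then 1405 times a floor of 3 counts over the group, a value that follows from leaving that library out. Per kilobase Upp1 stood at 13.9 ± 4.74 CPM in the controls, above Pnp at 11.7 ± 0.421 but within its own spread (SD, n = 3 each).

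Cda, the cytidine deaminase, which makes from cytidine the uridine that Upp1 splits, was sparse but went the same way. It held 18, 39 and 57 counts in the controls and none in the knockout libraries. The control level was 48.3 times a floor of 3 counts over all knockout libraries, or 30.9 times that floor without knockout replicate 2. Since both genes passed the filter only through the controls, their falls are given as counts, with no p. Pnp (chromosome 14, 50931082 to 50965237, plus strand), the purine counterpart of Upp1, fell from 46.4, 44.8 and 48.2 to 16.9, 17.3 and 15.1 CPM (-1.50 ± 0.11, adjusted p = 8.53e-07). The neighbouring copy Pnp2 held at most 52 counts in a library. Samhd1 (chromosome 2, 157097533 to 157135265, minus strand), the phosphohydrolase that degrades deoxynucleotides and is also an interferon-induced gene, fell from 50.4, 54.3 and 42.2 to 14.98, 17.9 and 14.6 CPM (-1.63 ± 0.13, adjusted p = 1.82e-06). In both, every knockout library lay below the lowest control by more than the spread within either group.

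Ada, the adenosine deaminase, was the breakdown gene that rose, from 4.89, 5.60 and 3.41 to 13.6, 12.6 and 13.7 CPM (1.52 ± 0.19, adjusted p = 5.3e-05). Xdh, the xanthine oxidoreductase that makes uric acid, held 4.53 ± 1.30 CPM in the controls and 3.66 ± 0.969 CPM in the knockout libraries (SD, n = 3 each) and was not called (-0.31 ± 0.28). Tymp, the thymidine phosphorylase, held 12, 18 and 31 counts in the controls and 49, 63 and 0 in the knockout libraries. It was not called (adjusted p = 0.811), and its exons overlap those of Ncaph2 and Sco2, so its counts are uncertain.

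**Figure D3:**
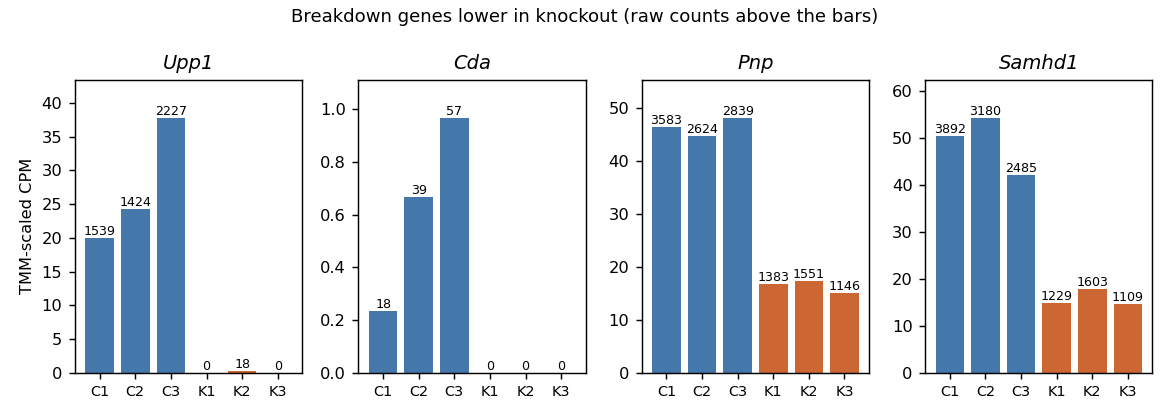
TMM-scaled CPM (y axis, linear, a scale for each gene) of the 4 breakdown genes that were lower, in control libraries C1 to C3 and knockout libraries K1 to K3, with the raw count above each bar. Upp1 and Cda are at or near 0 in the knockout libraries, while Pnp and Samhd1 remain at 15.1 CPM or more and 14.6 CPM or more.

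Set side by side, new synthesis had 11 of 17 genes higher and 1 lower, with a median of 0.57. Salvage and breakdown together had 4 of 16 higher and 5 lower, with a median of -0.10, or 4 and 3 of 14 and 0.11 without Upp1 and Cda. Those 14 genes, at 28.6% higher and 21.4% lower, lay near the 21.0% and 22.3% of all genes tested. New synthesis, at 64.7% higher and 5.88% lower, lay further from that background. Deoxynucleotide formation, at 77.8% higher and 0% lower, lay further still. Pooling hides differences within these groups. In new synthesis, 75% of the purine genes but 40% of the 5 pyrimidine genes were higher. The 5 breakdown genes among the 14 had 2 lower and 1 higher. The genes of a group are not replicates of a condition, so this contrast between groups is a description. Leaving out 1 library at a time gave 8 to 12 new synthesis genes higher, with the lowest count without knockout replicate 2. It gave 4 to 5 salvage and breakdown genes lower, Upp1 and Cda among them.

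Several steps are served by isozyme pairs, and their ratio within a library does not depend on how libraries are scaled. The log2 ratio of counts per kilobase was taken for 7 pairs. With 3 libraries against 3, the exact two-sided permutation test cannot give a p below 0.1, which all 7 pairs reached, so the ratios are given as values. Nme1 over Nme2 changed from -1.17 ± 0.03 to 0.73 ± 0.08 (SD, n = 3 each). Per kilobase, Nme2 thus stood above Nme1, its neighbour, in every control library and below it in every knockout library. That order rests on merged exon lengths of 3342 bp for Nme1 and 1171 bp for Nme2, since in raw counts Nme1 was the higher in all 6 libraries. Nme2 itself held 105.7 ± 2.49 and 100.1 ± 7.84 CPM and was not called (-0.08 ± 0.10, adjusted p = 0.568), but was at -0.42 with the length correction (adjusted p = 0.00296). The readthrough gene Gm20390 shares exons with both and held at most 289 counts, against 6028 or more for either kinase.

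Tk1 over Tk2 rose from 1.25 ± 0.58 to 3.80 ± 0.30 and Rrm2 over Rrm2b from 6.26 ± 0.17 to 9.32 ± 0.88. In each pair the S-phase form thus gained on the form that serves resting cells or mitochondria. Impdh2 over Impdh1 rose from 1.47 ± 0.36 to 3.18 ± 0.15. Uck2 over Uck1 went the other way, from 1.01 ± 0.66 to 0.01 ± 0.12. Ctps over Ctps2 and Prps1 over Prps2 shifted by only 0.15 and -0.32. Of the genes in these pairs, Rrm2b, Impdh2 and Uck1 are uncertain, as given above.

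**Figure D4:**
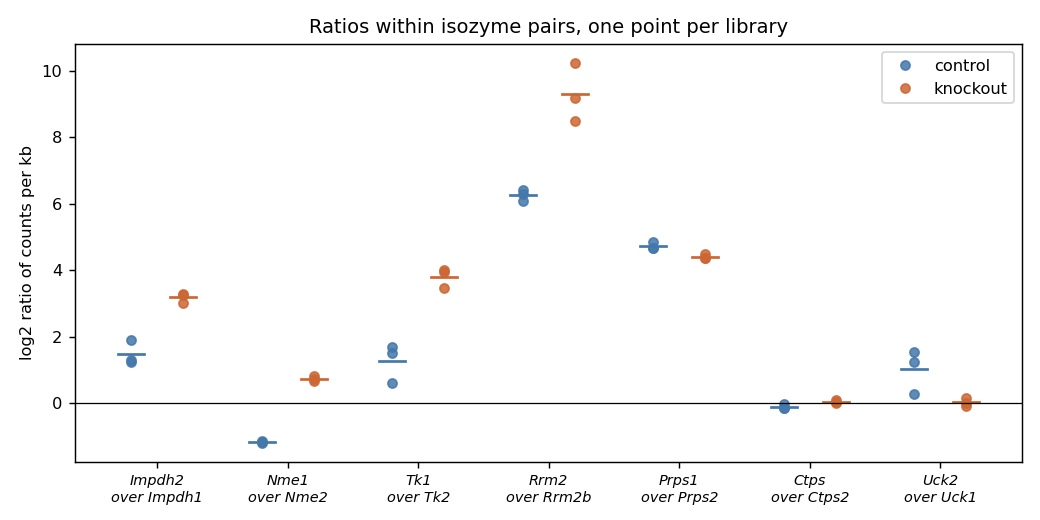
Log2 ratio of counts per kb of exon within 7 isozyme pairs, with a point for each library and a bar for the group mean. The Nme1 over Nme2 ratio lies below 0 in all 3 control libraries and above 0 in all 3 knockout libraries, and the Tk1, Rrm2 and Impdh2 ratios are higher in every knockout library.

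Promoters of these genes were read for letters bound by the MYC family and by E2F factors, which are known to act on nucleotide synthesis genes. The windows, from RefSeq on GRCm38.p6, cover 250 bases before to 50 after each start, and 38 of the 42 members had at least 1. Dhodh, Pfas, Rrm2b and Xdh were not matched. The E-box CACGTG, which reads the same on both strands, was present in the windows of 6 of the 38 members, against 8.09% of all 27025 genes with a window. Of the 6, Paics, Impdh2, Nme1, Tyms and Dtymk were higher in the knockout libraries and Atic was not called. Of all 42 members, 22 were higher, and a link between the E-box and the rise was not tested. The stretches around these E-boxes are shown to let the members be compared, 5′ to 3′ on the strand of the gene, with the E-box in capitals.
Paics (chr5:76951087-76951116, plus strand, 203 bases before the start): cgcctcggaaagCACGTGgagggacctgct
Impdh2 (chr9:108560314-108560343, plus strand, 110 bases before the start): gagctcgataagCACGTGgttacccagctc
Nme1 (chr11:93968273-93968302, minus strand, 18 bases before the start): gctgcggggaacCACGTGaggccggggagc
Tyms (chr5:30073669-30073698, minus strand, 61 bases before the start): aaccacttctgtCACGTGggggcggggtct
Dtymk (chr1:93802065-93802094, minus strand, 148 bases before the start): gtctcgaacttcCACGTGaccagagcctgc
Atic (chr1:71557137-71557155, plus strand, 7 bases before the start): ggacctcggggtCACGTGg
In GENCODE M21 the stretch of Paics lies in an untranslated part of an exon of Ppat, those of Impdh2 and Nme1 lie in such a part of their own genes, and that of Atic reaches into one. Nme1 has a further RefSeq start, with another E-box 29 bases before it.

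The E2F letters TTTCCCGC were found, on either strand, in the windows of 2 members, Ppat and Prps2, against 1.24% of all genes, and TTTGGCGC in none, against 0.585%. Ppat, which was not called, holds the letters at 2 places, shown on its own strand with the match in capitals.
Ppat, 211 bases before the start (chr5:76951771-76951800, minus strand): gagcagaccgcGCGGGAAAaaagggcagtg
Ppat, 158 bases before the start (chr5:76951718-76951747, minus strand): aggatcagaggGCGGGAAAgggaggtgcaa
Both stretches lie in an annotated exon of Paics. These matches describe letters in a window and show neither binding nor its absence.

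Genes of DNA replication, which uses the deoxynucleotides, and their E2F and MYC regulators were read beside them. Of 30 such genes, 13 were higher, 5 lower and 12 not called, with a median of 0.60. That is 43.3% higher and 16.7% lower, against 21.0% and 22.3% of all genes tested. Mcm7, a helicase subunit, uncertain because Ap4m1 shares part of its exons, rose from 11.8 ± 1.17 to 52.7 ± 1.33 CPM, the replication clamp Pcna from 67.6 ± 4.03 to 176.8 ± 11.9 CPM and Cdk1 from 38.3 ± 6.70 to 132.9 ± 9.60 CPM (SD, n = 3 each). Mxd1, which competes with MYC proteins for their partner Max, fell from 7.76 ± 0.774 to 0.382 ± 0.197 CPM (-4.35 ± 0.37, adjusted p = 2.07e-06). The next 3 genes were chosen after their values were seen. Mycn stood at 33.3, 38.6 and 31.6 CPM in the controls and 104.8, 186.4 and 253.3 CPM in the knockout libraries (2.40 ± 0.31, adjusted p = 0.000605), with a wide spread in the latter. Myc was the lower of the pair in the controls, at 0.346 against 10.5 CPM per kb, with 94, 52 and 42 counts against 0, 13 and 0. Its control level was 18.4 times the knockout level (95% counting interval 10.5 to 35.2). All 13 counts lay in knockout replicate 2, and without that library the control level was 50.9 times the 3-count floor. Like Upp1, Myc passed the filter on low counts only through the controls, so its fall is given as counts, with no test. It remains among the 5 lower genes counted above. E2f1 was not called, at 7.200 ± 0.235 and 7.38 ± 0.985 CPM (0.04 ± 0.17), and its sign depended on the setting. The part of these genes in the changes of the nucleotide enzymes was not tested.

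Around the core enzymes, 17 genes of the folate and one-carbon supply for purines and dTMP had 4 higher, 4 lower and 9 not called (median 0.23). That is 23.5% in each direction, near the 21.0% and 22.3% of all genes tested. Shmt2 and Shmt1, which take one-carbon units from serine, rose by 0.80 ± 0.10 and 1.25 ± 0.25. Aldh1l2 and Mthfd1l, both mitochondrial enzymes of folate metabolism, had log2 fold changes of -1.67 and -0.60, and Aldh1l2 is uncertain because it overlaps D10Wsu102e. Of 14 tested kinases of nucleoside phosphates and NAD, 8 were higher and 1 lower (57.1% and 7.14%, median 0.48). Ak6, an adenylate kinase, and Nadk, the NAD kinase, rose by 0.75 and 0.71, and Cmpk2, an interferon-induced mitochondrial kinase, fell by 1.74 ± 0.24 on the log2 scale, from 7.93 to 2.37 CPM.

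Of 15 tested nucleotidases and phosphohydrolases 2 were higher, 3 lower and 10 not called (median -0.15). Of the 23 listed, 6 held no count. The share higher was 13.3%, against 21.0% of all genes tested. The share lower did not exceed the 22.3% of all genes tested. Enpp4, an ectoenzyme that splits nucleotide phosphates, fell by 1.38 ± 0.21 on the log2 scale and Nt5c3b, a cytosolic nucleotidase, rose by 0.70 ± 0.12. Of 17 tested genes of further breakdown and clean-up of the pools, 5 were higher, 2 lower and 10 not called (median -0.06). That is 29.4% higher and 11.8% lower, against 21.0% and 22.3% of all genes tested. Dctpp1, which removes unwanted dCTP analogues, rose from 10.9 ± 1.28 to 30.6 ± 1.65 CPM (1.48 ± 0.13). Itpa, which removes inosine triphosphate, was at 1.53 ± 0.24 but is uncertain, since its pseudogene Itpa-ps1 held more counts than the gene itself. Urah, which acts on a product of uric acid, held 10093 counts over the controls and 3 over the knockout libraries. Urah too passed the filter only through the controls, so its fall is given as counts, although it is among the 2 lower. Downstream of uracil, Dpyd and Upb1 held no count in any library, and Dpys, between them, was not called (adjusted p = 0.0505).

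Of 7 tested nucleoside transporters, 1 was higher and 2 lower (14.3% and 28.6%, median -0.52), against 21.0% and 22.3% of all genes tested. Slc29a1, the equilibrative carrier that takes up nucleosides for salvage, stood at 10.1, 10.8 and 9.03 CPM in the controls and 43.2, 37.5 and 44.0 CPM in the knockout libraries (2.06 ± 0.13, adjusted p = 2.02e-07). Slc25a33, a mitochondrial carrier of pyrimidine nucleotides, fell by 1.27 ± 0.32 on the log2 scale (adjusted p = 0.00612), and is uncertain because it shares sequence with the antisense gene Gm13068. The other lower gene was Slc28a2, uncertain for its copy Gm14085, with 107, 40 and 82 counts against 19, 0 and 0. It too passed the filter only through the controls, and its call was lost with DESeq2 (adjusted p = 0.127) and without control replicate 1 (0.067) or 3 (0.060) or without replicate 3 of both groups (0.104).

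**Figure D5:**
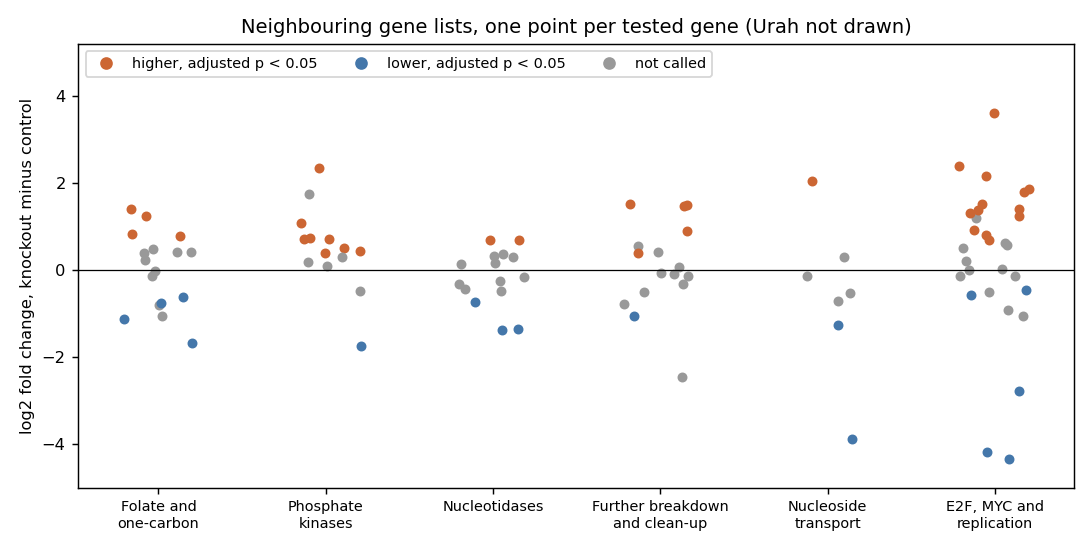
Log2 fold change (knockout minus control, y axis) of the tested genes of 6 neighbouring lists, with a point for each gene coloured by its call, and Urah left out. The list of E2F, MYC and replication genes has 13 of 30 points called higher and the phosphate kinases 8 of 14, while calls in the folate list are split 4 and 4. Of all genes tested, 21.0% were called higher and 22.3% lower.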

How the data were processed

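RNA from 6 samples was sequenced, and the authors deposited 1 table of whole-number counts per gene, not normalized. The submitters' processing notes name GRCm38 as the genome build. Aligner, counter, strand setting and treatment of multiply matching reads: not given in the sources used here. Of 55487 identifiers, 55227 had a symbol in GENCODE M21. In each library, counts that are multiples of 4 occurred 1.32 to 1.45 times as often as neighbouring values, so small counts are coarser than they look.

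The groups were compared with edgeR 4.0.16 in R 4.3.3 (TMM scaling, filterByExpr, glmQLFit, glmQLFTest, Benjamini-Hochberg adjustment over 12930 genes, threshold 0.05), without a replicate term. A quoted SE is the size of the log2 fold change over the root of F. CPM are TMM-scaled, and levels per kb use the merged exon length. The procedure was also run on simulated data. Far fewer genes were changed there than were called here, so it does not test the scaling under so wide a change. Copies were sought with blastn 2.17.0 (95% identity over 200 bp), and a gene is called uncertain where a matching gene held 10% or more of its count. Counting intervals are exact and cover counting error only, and 3 counts served as the floor. Since counts at multiples of 4 are over-frequent, a ratio to that floor is not a strict lower bound.

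Members, lists, alternatives and rules were chosen with earlier results of these data known. Values per library are given for called members changed at least 2-fold, for Upp1 and for the most abundant member of each group per kb, and up to 6 called genes of each neighbouring list are named by smallest p. Some genes of these lists are not reported here.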

Additional observations from a re-analysis of the deposited data

How the results depend on the processing

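Under 16 alternatives, 20 of the 28 called members (16 higher, 4 lower) kept their call wherever they were tested. The 4 lower were Upp1, Cda (tested in 14 of the 16), Pnp and Samhd1. Since Upp1 and Cda passed the filter only through the controls, their kept calls are no support, which leaves Pnp and Samhd1. Adk, Dctd, Uck2, Adsl, Gmps, Adss, Hprt and Impdh1 lost their call in 1 or more, and 0 called members changed direction. Leaving out single libraries gave 17 to 22 members higher and 5 to 7 lower, with Upp1 and Cda among the lower. With library totals alone 0 new synthesis genes were lower. In the deoxynucleotide group, 1 gene was lower with a stricter filter or with counts divided by 4 (Rrm2b) or with length offsets (Nme2), and 0 to 1 when single libraries were left out. The replicate numbers did not pair the samples (same-numbered deviations correlated at -0.006, 0.028 and 0.014, and not every sample correlated best with its own number), and with a replicate block 21 members were higher and 7 lower, 1 of them, Rrm2b, in the deoxynucleotide group. Among members not called, log2 fold changes with library totals alone were 0.12 for Ctps2 and 0.089 for Nme2, and with length offsets -0.0052 for Ctps, 0.027 for Ctps2, -0.19 for Aprt and 0.12 for Xdh. Atic was at -0.24 without replicate 3 of both groups. When single libraries were left out, the log2 fold change ran from -0.21 to 0.38 for Atic, -0.017 to 0.23 for Ctps, -0.14 to 0.038 for Ctps2, -0.046 to 0.18 for Uckl1 and -0.15 to 0.99 for Tymp. That of E2f1 ran from -0.090 to 0.10, and was -0.088 with length offsets. Apart from the filters and left-out libraries, which change the genes or samples used, the cause was not tested. Cda and Tymp held under 100 counts in every library, which limits their values.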
